A study of Homo sapiens with 9 samples.

Results

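RNA of SKMEL28 cells with a hairpin against p16 (shp16) was compared with RNA of SKMEL28 cells with a control hairpin (shCont), across all genes and a broad set of pathways. The comparison used 6 of the 9 libraries of the series, 3 for each group, and 15776 of the 48162 genes in the deposited table were abundant enough to be tested. SKMEL28 is a human melanoma cell line. Both groups were grown in DMEM with 5% FBS, infected with a lentivirus and kept in puromycin at 1 μg/ml for 3 days. The control hairpin is directed against GFP, which human cells lack, and the other against the transcripts of CDKN2A, the gene of p16. The remaining 3 libraries, from cells that received hairpins for p16 and for ATR (shp16/shATR), served only to estimate the spread between libraries, unless stated otherwise. All cells thus carried a lentiviral hairpin and had been selected, and whether they came from 1 clone is not given in the sources used here. The labels do not say whether a group's libraries come from separate cultures, and a figure legend of the study gives its LSS mRNA data as 1 experiment in 3 technical replicates, so p-values measure only the spread between these libraries, which may be technical.

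p16 binds the cyclin-dependent kinases CDK4 and CDK6 and keeps them from phosphorylating the retinoblastoma protein RB. Phosphorylated RB releases E2F factors, which drive the genes of DNA replication, and p16 is therefore a brake on entry into the cell cycle that is often lost in melanoma. The locus of p16 on chromosome 9 also encodes ARF from an alternative first exon, and the neighbouring gene CDKN2B encodes the related inhibitor p15.

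Libraries held between 18758166 and 23588174 counts in shCont and between 20000686 and 20555368 in shp16. In each group replicate 1 stood apart from the other 2 libraries. The median gene of shCont replicate 1 was off by 0.398 on the log2 scale from the mean of shCont replicates 2 and 3, and in shp16 replicate 1 by 0.220. This offset followed gene length in shCont replicate 1, with a median of 0.284 in the shortest quintile of the genes and −0.442 in the longest quintile. In shp16 replicate 1 those values were −0.0940 and 0.0866. Counts of calls in gene lists are therefore followed by those of 2 reduced fits. The first leaves out shCont replicate 1, and the second leaves out replicate 1 of both groups, a choice made after seeing the data. Pairs of counts give higher calls first and lower calls second, for the first reduced fit and then for the second. Melanocyte genes were abundant in all 6 libraries. SOX10, a lineage factor, had 989, 825 and 816 CPM in shCont and 856, 917 and 904 CPM in shp16 (CPM, counts scaled to the library total and normalized by TMM), and MLANA, a melanosome protein, had 929, 728 and 717 CPM in shCont and 773, 878 and 866 CPM in shp16. CDKN2A itself was at 162, 112 and 103 CPM in shCont and 78.1, 93.5 and 99.9 CPM in shp16, a log2 fold change of −0.48 (SE 0.16, adjusted p = 0.0723) by edgeR's quasi-likelihood test with Benjamini-Hochberg adjustment. The groups did not overlap, but the change missed the threshold of 0.05. It was −0.26 without shCont replicate 1 and −0.16 without replicate 1 of both groups. The counts of CDKN2A join p16 with the other transcripts of the gene, such as that of ARF, so the change is not a measure of p16 alone. The study refers to earlier work for the validation of its p16 hairpin. In bulk RNA such as this, a change in the number of cells that express a gene and a change in RNA per cell cannot be told apart.

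Across the genome, 1141 genes were called higher in shp16 (7.23% of the genes tested) and 1198 lower (7.59%), or 2339 in all (14.8%). The test was that of edgeR at an adjusted p of 0.05. Without shCont replicate 1 the calls were 2169 higher (13.7%) and 2020 lower (12.8%), and without replicate 1 of both groups they were 2727 (17.3%) and 2540 (16.1%). Of the 2339 genes, 2247 (96.1%) were called in the same direction without shCont replicate 1, and none was called in the opposite direction. With each of the 9 libraries left out in turn, 539 higher and 531 lower calls were made in all of these fits. Upper-quartile normalization gave 922 higher and 1475 lower calls, so that 38.5% of the calls were higher, against 48.8% with TMM. Over all genes tested, the median change was 0.26 in size on the log2 scale. The median called gene differed by 0.74 on the log2 scale, 746 of the called genes (31.9%) changed less than 1.5-fold, and 338 higher and 441 lower genes changed at least 2-fold. At least 4-fold changes were seen in 113 higher and 146 lower genes. The libraries of the 2 groups did not overlap in 5302 genes (33.6%), in either direction.

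**Figure D1:**
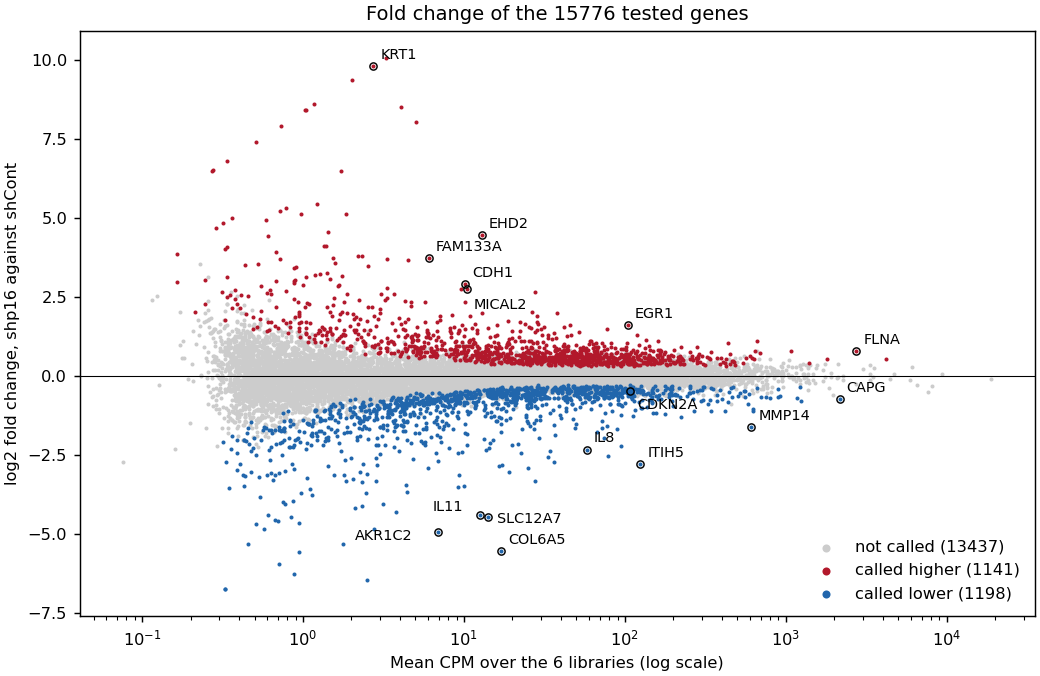
Each point is 1 of the 15776 tested genes, with its mean CPM over the 6 libraries on a logarithmic x axis and its log2 fold change in shp16 against shCont on the y axis, and colour marks the direction of the call. Rings mark 16 of the genes named in the text. Called genes lie on both sides of 0 over most of the range of levels, and among the ringed genes of at least 5 CPM the changes run from −5.55 (COL6A5) to 4.45 (EHD2).

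The share of genes called depended on their level and length. In the least abundant quintile of the genes (mean CPM up to 1.54), 3.87% were called higher and 4.47% lower, although the median change there was the largest in size, at 0.50 on the log2 scale. In the most abundant quintile (mean CPM of 73.8 or more) the shares were 8.21% and 6.56%, with a median change of 0.19. Calls of higher genes rose with gene length from 2.22% in the shortest quintile to 12.5% in the longest, and lower calls were 6.12% and 6.53%. Without shCont replicate 1 the higher calls were 8.84% and 17.4% and the lower calls 6.34% and 17.1%. The median fold change of the longest quintile moved from 0.12 to 0.00, and that of the shortest quintile from −0.09 to 0.00.

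With genes of cholesterol synthesis, zinc finger genes of chromosome 19 and clone names left aside, the 15 largest rises, among genes of at least 5 CPM that were called with and without shCont replicate 1 and whose groups did not overlap, ran from 1.88 (ARHGAP26) to 4.45 (EHD2) on the log2 scale. EHD2, an ATPase of caveolae on chromosome 19 (48216600 to 48246391 in GRCh37 coordinates), was at 1.37, 1.13 and 0.849 CPM in shCont and 28.1, 23.9 and 21.9 CPM in shp16. Its log2 fold change was 4.45 (SE 0.20, adjusted p = 1.83e-07). FAM133A, a gene of the X chromosome, followed with 0.619, 1.08 and 0.849 CPM in shCont and 13.3, 10.3 and 9.94 CPM in shp16 (3.73). CDH1, which encodes E-cadherin, was at 1.77, 2.41 and 3.00 CPM in shCont and 16.9, 18.9 and 17.7 CPM in shp16, a change of 2.90 (SE 0.18, adjusted p = 1.44e-06). TJP1, the tight junction protein ZO-1, also rose, from 9.98, 10.8 and 15.5 CPM to 49.3, 44.5 and 41.1 CPM (1.90).

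The other rises were of varied function. MICAL2, an actin-oxidizing enzyme, rose from 2.92, 2.26 and 2.95 CPM to 22.2, 16.6 and 15.6 CPM (2.73). TIAM1, a guanine nucleotide exchange factor, rose by 2.02, and the GTPase-activating proteins CHN1 and ARHGAP26 by 2.35 and 1.88. ADRBK2, a kinase of activated G protein-coupled receptors now named GRK3, was at 6.14, 7.96 and 8.64 CPM in shCont and 52.7, 45.0 and 44.5 CPM in shp16 (2.65). ADAM19, a membrane metalloprotease, reached 69.0, 54.5 and 58.6 CPM from 10.9, 18.1 and 16.6 CPM (2.00). MAGEA10, a cancer-testis antigen, changed by 2.76, PNMA2 by 2.34, the scaffold GRASP by 1.99, the integrin ITGAX by 1.93 and the WNT antagonist DACT3 by 1.90. All 15 stayed called with any of the 9 libraries left out.

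**Figure D2:**
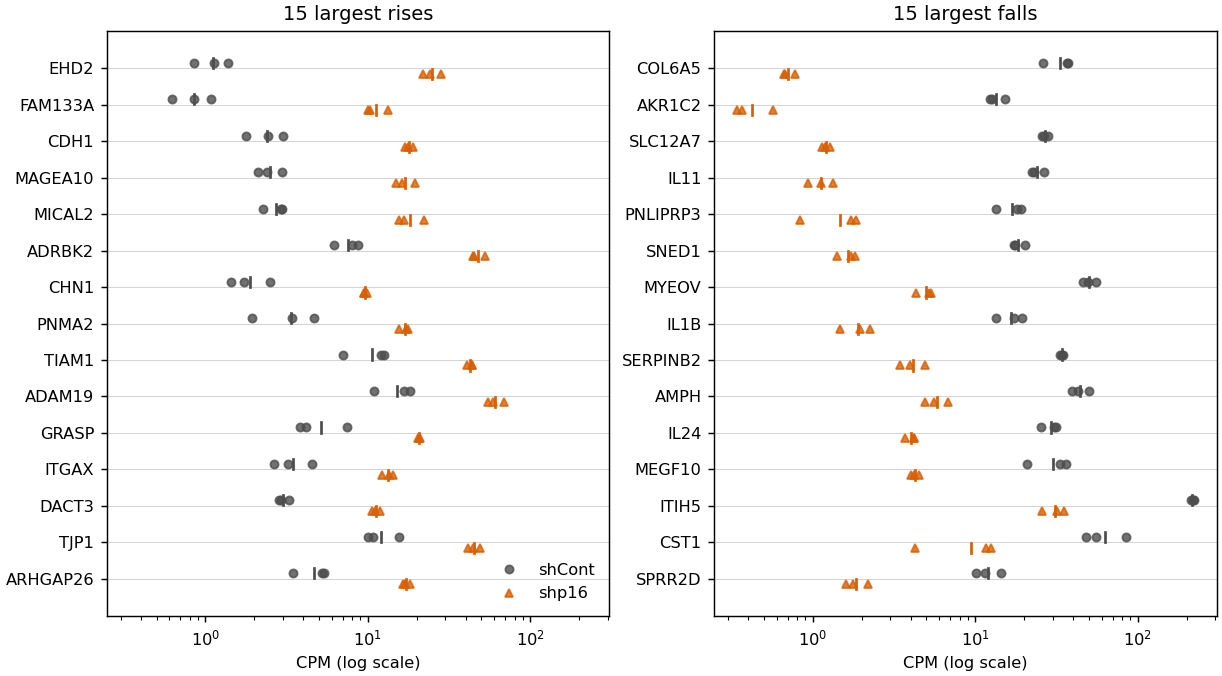
CPM of each library on a logarithmic x axis, for the 15 largest rises (left) and the 15 largest falls (right) described in the text, with circles for the 3 shCont libraries, triangles for the 3 shp16 libraries and short bars for the group means. The groups are apart in each gene, as the choice of genes required, and CST1 in shp16 replicate 1 (4.26 CPM) lies below the other 2 shp16 libraries (12.4 and 11.6 CPM).

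The 15 largest falls held several secreted and surface proteins. COL6A5, a collagen VI chain, was at 26.1, 36.5 and 37.4 CPM in shCont and 0.675, 0.664 and 0.780 CPM in shp16, a log2 fold change of −5.55 (SE 0.21, adjusted p = 1.12e-07) by the edgeR test. The steroid-metabolizing reductase AKR1C2 was at 15.3, 12.4 and 12.7 CPM in shCont and 0.364, 0.569 and 0.341 CPM in shp16 (−4.96), and the potassium-chloride cotransporter SLC12A7 at 28.2, 25.9 and 26.5 CPM in shCont and 1.20, 1.14 and 1.27 CPM in shp16 (−4.48). AKR1C2 passed the filter on low counts only through the shCont libraries, in which it was high. Cytokines made up 3 of the 15. IL11 went from 26.6, 23.1 and 22.4 CPM to 0.935, 1.33 and 1.12 CPM (−4.40), IL1B from 19.4, 13.4 and 17.3 CPM to 2.23, 1.47 and 1.95 CPM (−3.15) and IL24 from 31.6, 30.6 and 25.3 CPM to 4.21, 3.70 and 4.19 CPM (−2.85).

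Protease inhibitors were also among the falls. SERPINB2, which inhibits the plasminogen activator urokinase, fell from 33.4, 34.6 and 34.0 CPM to 3.95, 4.93 and 3.46 CPM (−3.04), the cystatin CST1 by 2.73 on the log2 scale, and ITIH5, a hyaluronan-binding protein of the inter-alpha-trypsin inhibitor family, from 218, 212 and 221 CPM to 25.8, 35.4 and 31.6 CPM (−2.81). MYEOV, a gene of chromosome 11 near CCND1, was at 55.4, 49.3 and 46.1 CPM in shCont and 5.19, 5.36 and 4.34 CPM in shp16 (−3.34). The remaining members were the lipase-related PNLIPRP3 (−3.52), the matrix protein SNED1 (−3.48), the endocytic protein AMPH (−2.93), the engulfment receptor MEGF10 (−2.82) and the cornified envelope protein SPRR2D (−2.70). Each of the 15 stayed called with any of the 9 libraries left out.

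The most abundant called genes were mostly lower. By mean FPKM, a level per length of the gene, the 10 highest genes called with and without shCont replicate 1 and changed at least 1.5-fold with all libraries were CAPG, FTL, CTSD, S100B, HMG20B, FLNA, GYPC, PRNP, MFI2 and PRDX1, and FLNA was the only rise. CAPG, an actin-capping protein, had a mean FPKM of 1863 in shCont and 1112 in shp16 (log2 fold change −0.75, and −0.47 without shCont replicate 1). The lysosomal protease CTSD was at 2110.0, 1317 and 1289 CPM in shCont and 715, 1012 and 991 CPM in shp16 (−0.80, and −0.53 without shCont replicate 1). The ferritin chain FTL (−0.67) moved to −0.39 and the chromatin protein HMG20B (−0.65) to −0.34 without that library, in which all 4 of these genes were highest. S100B (−0.68) moved to −0.48 and GYPC (−0.67) to −0.41, so that 6 of the 10 changed less than 1.5-fold without it. PRNP, the prion protein, did not follow that library. It was at 893, 1030.0 and 1069 CPM in shCont and 643, 592 and 587 CPM in shp16 (−0.72, and −0.80 without shCont replicate 1). MFI2, the iron-binding melanoma antigen melanotransferrin, fell by 0.72 on the log2 scale. The filamin FLNA, which crosslinks actin, was at 2026, 1988 and 2066 CPM in shCont and 4038, 3127 and 3229 CPM in shp16 (0.77, SE 0.13, adjusted p = 0.00205). Of the 10 genes, CAPG, FTL, CTSD, HMG20B and GYPC lost their call without at least 1 shp16 library, and the other 5 stayed called with any library left out.

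Genes were then grouped in 46 lists by pathway, complex or cell type, together 1178 tested genes, and each list was read against the shares of all genes called (7.23% higher and 7.59% lower). In the reduced fits those shares were larger, at 13.7% and 12.8%, then 17.3% and 16.1%. More calls of a list in those fits are to be read against these shares. Cytokines and targets of NF-kB, a factor of inflammatory signalling, held the highest share of lower calls. Of 22 tested members, the edgeR test called 1 higher and 10 lower, and the median log2 fold change was −0.53 against −0.02 over all genes tested. Beside IL11, IL24 and IL1B, IL8 (CXCL8), which attracts neutrophils, fell from 94.2, 97.9 and 98.7 CPM to 20.1, 19.1 and 18.3 CPM, a change of −2.34 (SE 0.10, adjusted p = 1.12e-07) by the edgeR test. In each of these 4 genes the groups did not overlap, and 7 of the 10 lower calls were made with any library left out. CSF1, the macrophage growth factor, was the 1 higher call. The reduced fits gave 1 and 11, then 1 and 11 calls, with medians of −0.47 and −0.34. In the list, 11 members, among them IL6, were too low to be tested (at most 0.565 CPM in any of the 6 libraries).

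Proteases of the matrix and their inhibitors moved in both directions. Of 21 tested members, the edgeR test called 3 higher and 7 lower, and the reduced fits gave 5 and 6, then 5 and 7. MMP14, the membrane-type collagenase, was at 1048, 862 and 856 CPM in shCont and 262, 312 and 316 CPM in shp16 (−1.64, SE 0.12, adjusted p = 7.16e-06). The interstitial collagenase MMP1 was at 13.2, 9.50 and 10.9 CPM in shCont and 3.01, 2.99 and 2.83 CPM in shp16 (−1.93), and the urokinase receptor PLAUR at 85.9, 70.3 and 66.1 CPM in shCont and 14.96, 27.5 and 28.9 CPM in shp16 (−1.64), with ADAM19 opposite in direction. Output genes of the ERK kinase pathway, which BRAF and RAS drive, gave 7 lower and 2 higher calls among 25 tested members, and 3 and 12, then 4 and 14 in the reduced fits. CCND1, or cyclin D1, fell from 681, 878 and 977 CPM to 498, 353 and 367 CPM (−1.06), while the receptor EPHA2 rose from 2.61, 2.06 and 1.90 CPM to 6.39, 6.45 and 5.61 CPM (1.48). EGR1, an immediate early factor in the same list, rose from 51.6, 51.7 and 52.0 CPM to 162, 153 and 154 CPM, a change of 1.59 (SE 0.0927, adjusted p = 1.15e-06). In the list of immediate early factors, 8 of 27 tested members were called higher and 2 lower, with 9 and 4, then 14 and 4 in the reduced fits. These included EGR2 (1.44), ATF3 (1.23) and JUN, which was at 39.9, 40.1 and 39.2 CPM in shCont and 60.2, 68.2 and 68.5 CPM in shp16 (0.72). With any library left out, 4 of the 7 lower protease calls, 4 of the 7 lower ERK calls and 4 of the 8 higher immediate early calls remained.

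**Figure D3:**
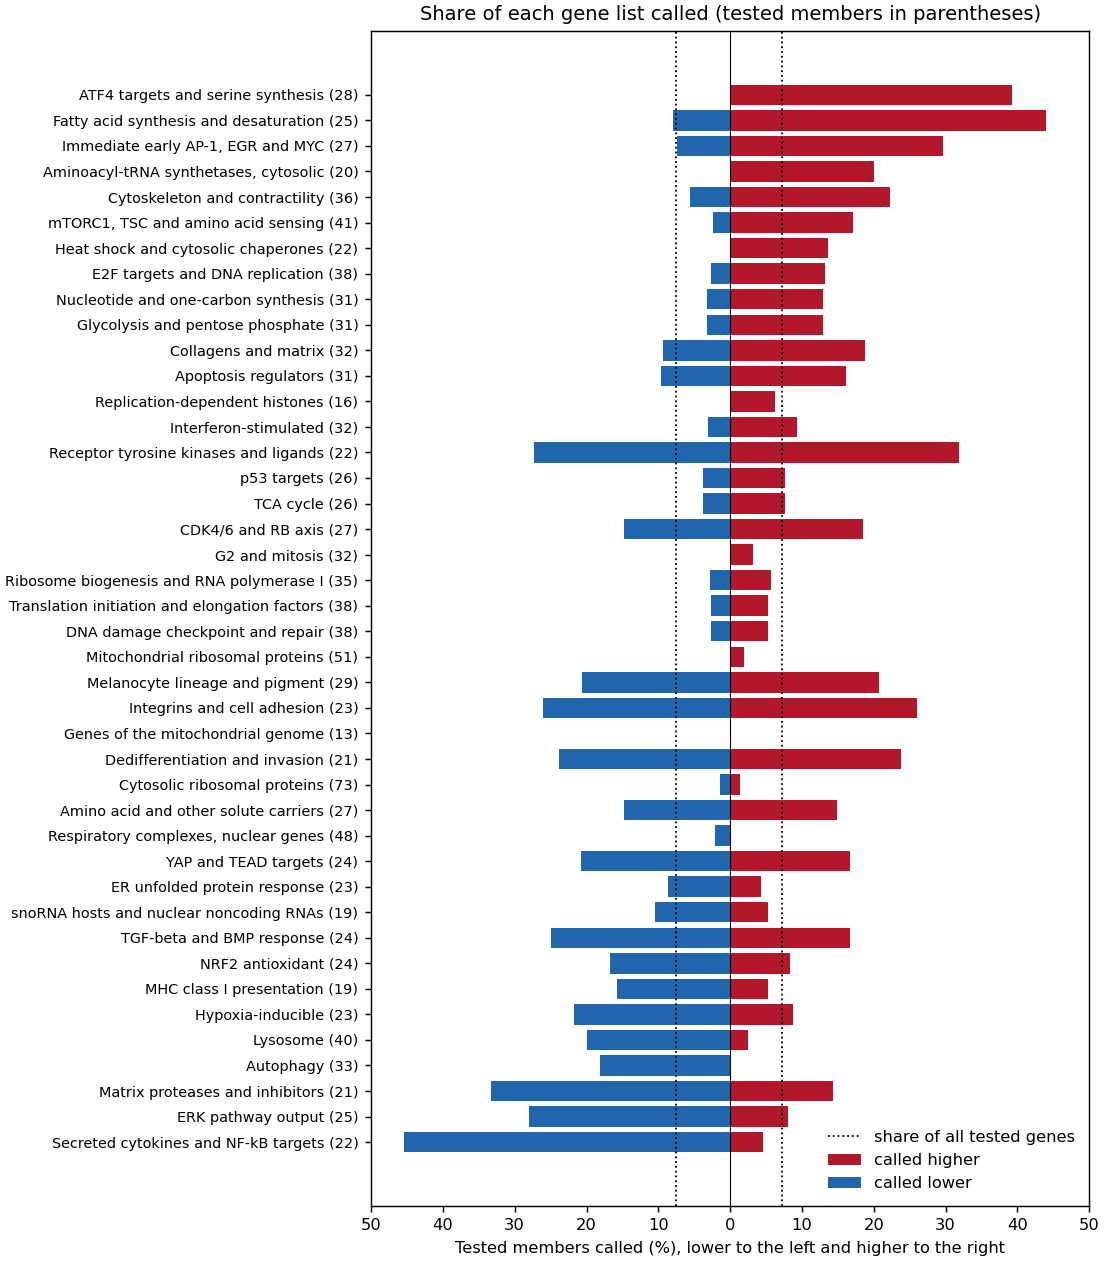
Bars give, for each gene list (number of tested members in parentheses), the percentage of tested members called higher (right) and lower (left) in shp16, and dotted lines mark the shares of all tested genes (7.23% higher and 7.59% lower). Lists of under 13 tested members and the lists of other cell types are left out. ATF4 targets and fatty acid synthesis stand at the upper end, with 39.3% and 44.0% called higher, and secreted cytokines at the lower end, with 45.5% called lower.

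Targets of ATF4, the factor that cells use when amino acids are short or the endoplasmic reticulum is stressed, moved the other way. Of 28 tested members, the edgeR test called 11 higher and 0 lower, and the median log2 fold change was 0.33. CHAC1, an enzyme that degrades glutathione, was low in shCont and rose, with 1.06, 1.08 and 0.450 CPM in shCont and 3.90, 5.55 and 6.34 CPM in shp16 (2.60, SE 0.32, adjusted p = 0.000287). The hormone-like protein STC2 was at 0.265, 0.616 and 0.749 CPM in shCont and 1.82, 3.79 and 4.09 CPM in shp16 (2.58), and CTH, which makes cysteine, at 15.7, 19.1 and 18.4 CPM in shCont and 30.4, 39.5 and 38.6 CPM in shp16 (1.03). In shCont, CHAC1 and STC2 lay near the filter on low counts. STC2 passed it only with libraries that carried the p16 hairpin, in which it was high, and is still counted among the 11. ATF4 itself was at 250.3, 192 and 176 CPM in shCont and 121, 242 and 235 CPM in shp16 (−0.05, adjusted p = 0.911), and PHGDH, the first enzyme of serine synthesis, changed by 0.23 (adjusted p = 0.351), so neither passed the test. Calls made with any library left out numbered 5 of the 11. The reduced fits gave 16 and 2, then 17 and 3 calls, with medians of 0.42 and 0.37. Among the cytosolic aminoacyl-tRNA synthetases, which load tRNAs with amino acids, 4 of 20 were called higher and 0 lower, led by WARS (0.55), and 7 and 0, then 7 and 4 in the reduced fits, but each of the 4 calls was lost with at least 1 library left out. The unfolded protein response of the endoplasmic reticulum is a separate list. Its chaperone HSPA5, or BiP, was at 775, 710.4 and 751 CPM in shCont and 564, 584 and 568 CPM in shp16 (−0.38), and the list of 23 had 1 higher and 2 lower calls (2 and 5, then 4 and 8 in the reduced fits), none of which held with every library left out. In the cytosol, the heat shock protein HSPA1B rose from 34.5, 23.01 and 25.3 CPM to 53.4, 46.0 and 45.6 CPM (0.81) and was 1 of 3 higher and 0 lower calls among 22 (6 and 2, then 7 and 6 in the reduced fits), with reads that its near-identical copy HSPA1A could share.

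The axis of CDK4, CDK6 and RB, on which p16 acts, had 5 higher and 4 lower calls among 27 tested members, and 6 and 5, then 7 and 6 in the reduced fits. Inhibitors of the cycle were among the rises. CDKN2B, or p15, was at 16.3, 18.6 and 20.8 CPM in shCont and 26.6, 31.1 and 26.1 CPM in shp16 (0.59), and CDKN1B, or p27, at 36.5, 43.5 and 39.8 CPM in shCont and 50.02, 64.9 and 63.7 CPM in shp16 (0.58). Genes within 5 Mb of CDKN2A on chromosome 9, CDKN2B among them, had a median of 0.52. The part of this region in the rise of CDKN2B was not tested. Beside cyclin D1, the repressive factor E2F4 fell, from 73.3, 57.6 and 51.2 CPM to 27.5, 33.1 and 38.3 CPM (−0.88, SE 0.16, adjusted p = 0.00423). E2F targets and genes of DNA replication had 5 higher and 1 lower calls among 38, with a median of 0.08. The replicative polymerase POLE was at 67.9, 85.2 and 80.8 CPM in shCont and 128, 124 and 126 CPM in shp16 (0.69) and the helicase subunit GINS1 at 52.7, 46.7 and 49.5 CPM in shCont and 82.5, 72.4 and 74.0 CPM in shp16 (0.62). Both stayed called with any library left out, whereas TYMS and CCNA2 did not. In the reduced fits the same list gave 13 and 3, then 14 and 4 calls, with medians of 0.07 and 0.00. Of 32 genes of G2 and mitosis, 1 was called higher (AURKA, 0.33) and 0 lower, and the reduced fits gave 10 and 1, then 11 and 4. The call of AURKA was lost with 7 of the 9 libraries left out. MDC1, an adaptor of the DNA damage checkpoint, rose from 43.9, 50.4 and 50.2 CPM to 88.0, 82.1 and 80.0 CPM (0.79), in a list of 38 with 2 higher and 1 lower calls. The balance of that list depended on the libraries, with 5 and 8, then 6 and 9 in the reduced fits. Targets of p53 had 2 and 1 among 26 (3 and 3, then 7 and 2 in the reduced fits), and no call of that list held with every library left out. CDK6 changed by 0.93 and its call, like that of CDKN1B, was lost without 1 of the shp16 libraries.

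Genes of the melanocyte lineage changed in both directions, with 6 higher and 6 lower calls among 29 tested members and a median of −0.03. The reduced fits gave 6 and 8, then 9 and 9. The lineage factors MITF (0.09, adjusted p = 0.737) and SOX10 (0.03, adjusted p = 0.907) did not pass the test. The survival gene BCL2A1 fell from 146, 114 and 109 CPM to 62.2, 66.3 and 66.3 CPM (−0.92), and MLPH, which tethers melanosomes, from 928, 689.9 and 654 CPM to 359.6, 440.0 and 426 CPM (−0.89). P-cadherin, or CDH3, rose from 40.9, 38.2 and 39.0 CPM to 81.1, 86.5 and 83.7 CPM (1.09, SE 0.0943, adjusted p = 2.47e-05), and N-cadherin, or CDH2, a member of the list of dedifferentiation, from 18.0, 19.98 and 23.5 CPM to 55.2, 51.9 and 50.3 CPM (1.35). CDH1, CDH2 and CDH3, which are 3 of the classical cadherins, were thus each higher in shp16. The nerve growth factor receptor NGFR, a neural crest marker, was at 2.83, 3.29 and 1.65 CPM in shCont and 7.38, 7.21 and 8.14 CPM in shp16 (1.55), while the ectonucleotidase NT5E fell from 515, 572 and 626 CPM to 262, 260.5 and 266 CPM (−1.12). The integrin ITGA5, a fibronectin receptor chain, fell from 62.0, 51.7 and 51.5 CPM to 31.2, 35.5 and 34.4 CPM (−0.71). In the lists of dedifferentiation and of adhesion the calls were 5 higher and 5 lower among 21, and 6 and 6 among 23. In the reduced fits they were 6 and 6, then 8 and 9 for dedifferentiation, and 8 and 8, then 9 and 9 for adhesion.

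Receptor tyrosine kinases and their ligands were among the lists with most calls, 7 higher and 6 lower among 22, and 6 and 5 of these were made with any library left out. The reduced fits gave 7 and 6, then 7 and 8. The insulin receptor INSR fell from 11.7, 13.7 and 14.99 CPM to 3.74, 2.56 and 1.90 CPM (−2.30, SE 0.29, adjusted p = 0.000344), and TGFA, a ligand of the EGF receptor, from 7.82, 10.6 and 10.8 CPM to 3.69, 4.13 and 4.00 CPM (−1.30). FGFR4 rose from 9.23, 6.88 and 7.09 CPM to 14.8, 15.5 and 16.9 CPM (1.02). In the cytoskeleton, 8 of 36 tested genes were called higher and 2 lower, and the reduced fits gave 16 and 2, then 17 and 4. The calponin CNN3 rose from 118, 122 and 129.5 CPM to 239.8, 197 and 203 CPM (0.79), whereas the muscle filamin FLNC fell from 1.99, 2.11 and 1.65 CPM to 0.312, 0.190 and 0.0975 CPM (−3.24). The shp16 values of FLNC were too low to give the size of its fall precisely. FLNC passed the filter on low counts only through libraries in which it was higher, and is still counted among the 2. Targets of YAP and TEAD, the factors of the Hippo pathway, were divided (4 higher and 5 lower among 24, and 4 and 7, then 5 and 9 in the reduced fits), with CTGF at 49.6, 58.9 and 59.1 CPM in shCont and 21.1, 25.2 and 24.5 CPM in shp16 (−1.24). Genes of the TGF-beta and BMP response were too (4 and 6 among 24, and 4 and 6, then 3 and 6 in the reduced fits), with the BMP-responsive inhibitor of differentiation ID3 at 236, 163 and 151 CPM in shCont and 76.3, 101 and 100.2 CPM in shp16 (−0.99) and its relative ID4 at 7.11, 7.09 and 8.19 CPM in shCont and 13.1, 15.03 and 15.2 CPM in shp16 (0.95). HSPG2, or perlecan, rose from 323, 448 and 489.9 CPM to 974, 843 and 868 CPM (1.09) and was 1 of 6 higher calls among 32 collagen and matrix genes, of which 3 were called lower (9 and 7, then 13 and 7 in the reduced fits).

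Promoters of the tested members of some lists, called or not, were read for the short motifs that the named factors bind. Each promoter spans 250 bases before to 50 after a RefSeq transcription start (build GRCh38.p14), and a motif was searched on both strands. Matches to different motifs were counted separately, also where they overlapped. The composite site of ATF4 and C/EBP factors, TGATGNAA, was in the promoters of 7 of 23 ATF4 list members with a promoter (30.4%), against 4.46% of all 27305 genes of the promoter table and 2.86% of the tested genes in it. Both shares follow in this order for the other motifs. Of the 10 higher members with a promoter, 4 held it. The E2F site TTTNNCGC was in 21 of 33 (63.6%, against 8.23% and 12.7%), and the TEAD site CATTCC in 10 of 18 (55.6%, against 16.7% and 15%). The AP-1 site TGANTCA was in 3 of 18 promoters of the cytokine list (16.7%, against 9.37% and 7.13%), and 2 of the 9 lower members held it. For the MITF motif TCANGTG in the melanocyte list the count was 8 of 20 (40.0%, against 14.9% and 16%). The sterol regulatory motif TCACNCCAC was in 1 of 21 promoters of the fatty acid list (against 1.39% and 1.46%), and the ETS motif CCGGAAG in 15 of 38 of the respiratory list (39.5%, against 12.2% and 22%). Among called members with a promoter, the E2F site was in 3 of 5 higher and 0 of 1 lower, and the TEAD site in 1 of 2 and 2 of 5. The MITF motif was in 0 of 3 higher and 2 of 5 lower, and the sterol motif in 0 of 9 and 0 of 2. No called member of the respiratory list had a promoter. The lists of ATF4, E2F and TEAD hold targets of these factors, so a high share describes the list and not a change in shp16.

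The promoters below are shown because each belongs to the called member of smallest adjusted p in its list that holds the motif, for the 4 lists where that p was smallest, and because they show where the letters lie relative to the start. Capitals mark the motif on either strand, and each sequence runs 5′ to 3′ along the gene. The IL8 promoter, chr4:73740319-73740618 (plus strand), holds the AP-1 motif from base −137. In the CTGF promoter, chr6:131951323-131951622 (minus strand), the TEAD motif occurs on the opposite strand from bases −169, −104 and −95. The CHAC1 promoter, chr15:40953221-40953520 (plus strand), holds the ATF4 motif on the opposite strand from base −209, and the BCL2A1 promoter, chr15:79971147-79971446 (minus strand), the MITF motif from base −26. A match describes these letters only.
IL8: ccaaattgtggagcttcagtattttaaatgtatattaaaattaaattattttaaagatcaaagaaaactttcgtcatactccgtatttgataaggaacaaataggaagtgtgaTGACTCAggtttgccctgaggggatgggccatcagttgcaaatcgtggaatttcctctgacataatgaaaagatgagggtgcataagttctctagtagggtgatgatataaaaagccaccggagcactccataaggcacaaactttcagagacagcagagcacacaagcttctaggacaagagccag
CTGF: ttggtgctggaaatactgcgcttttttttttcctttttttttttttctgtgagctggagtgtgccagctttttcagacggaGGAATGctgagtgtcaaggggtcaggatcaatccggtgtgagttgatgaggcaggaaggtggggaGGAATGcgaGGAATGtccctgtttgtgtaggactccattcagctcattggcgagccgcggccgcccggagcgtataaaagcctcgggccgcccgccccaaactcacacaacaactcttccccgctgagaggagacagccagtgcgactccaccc
CHAC1: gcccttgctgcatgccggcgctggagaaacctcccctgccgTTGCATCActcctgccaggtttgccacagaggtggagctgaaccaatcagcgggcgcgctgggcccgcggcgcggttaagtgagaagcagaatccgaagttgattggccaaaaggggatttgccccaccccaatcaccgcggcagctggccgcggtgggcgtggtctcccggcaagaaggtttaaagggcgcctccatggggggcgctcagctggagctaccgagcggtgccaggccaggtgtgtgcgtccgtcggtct
BCL2A1: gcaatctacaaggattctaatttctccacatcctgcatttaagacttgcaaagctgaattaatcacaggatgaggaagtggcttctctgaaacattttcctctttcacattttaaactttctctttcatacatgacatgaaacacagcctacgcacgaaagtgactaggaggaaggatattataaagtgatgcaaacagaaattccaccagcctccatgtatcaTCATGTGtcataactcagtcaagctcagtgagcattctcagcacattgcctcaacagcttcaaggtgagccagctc

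Of the metabolic lists, fatty acid synthesis and desaturation stood out, with 11 higher and 2 lower calls among 25 tested members (median 0.37), and 12 and 4, then 12 and 5 in the reduced fits. FASN, which builds palmitate, was at 862, 728 and 783 CPM in shCont and 1579, 1243 and 1278 CPM in shp16 (0.79, SE 0.12, adjusted p = 0.00151). The acetate-activating enzyme ACSS2 was at 50.3, 48.2 and 51.8 CPM in shCont and 72.8, 75.1 and 75.9 CPM in shp16 (0.57) and the carboxylase ACACB at 38.6, 47.3 and 47.6 CPM in shCont and 72.6, 66.8 and 71.1 CPM in shp16 (0.66). ELOVL7, an elongase of long saturated chains, went the other way, from 19.1, 24.7 and 24.7 CPM to 4.31, 4.22 and 4.73 CPM (−2.37). With any library left out, 4 of the higher and 1 of the lower calls were made. Lysosomal genes were mostly lower where called (1 higher and 8 lower among 40, median −0.23, and 3 and 9, then 4 and 15 in the reduced fits). The proton pump subunit ATP6V0D2 fell from 42.6, 40.6 and 45.6 CPM to 16.3, 16.2 and 15.8 CPM (−1.42) and the glucosidase GAA from 91.9, 82.0 and 73.9 CPM to 29.9, 45.0 and 45.2 CPM (−1.05). Autophagy genes had 6 lower and 0 higher calls among 33, and 1 and 7, then 3 and 10 in the reduced fits, with the conjugation factor ATG16L1 at 64.2, 63.3 and 62.9 CPM in shCont and 34.3, 42.1 and 42.3 CPM in shp16 (−0.68), the 1 call of the list made with any library left out. Of the lysosomal calls 3 were, all lower.

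Hypoxia-inducible genes had 2 higher and 5 lower calls among 23, and 2 and 11, then 2 and 12 in the reduced fits. NDRG1 fell from 127, 134 and 139 CPM to 54.9, 55.8 and 59.5 CPM (−1.23, SE 0.10, adjusted p = 1.4e-05), and HIF1A, the oxygen-regulated factor itself, from 449, 574 and 658 CPM to 342, 301 and 296 CPM (−0.84), while its relative EPAS1 rose by 0.65. Antioxidant targets of NRF2 were divided (2 and 4 of 24, and 7 and 5, then 7 and 6 in the reduced fits), with AKR1C1 at 6.01, 4.11 and 5.09 CPM in shCont and 0.935, 0.617 and 1.17 CPM in shp16 (−2.48), the peroxiredoxin PRDX1 at 515, 381 and 372 CPM in shCont and 241, 254 and 249 CPM in shp16 (−0.77) and the glutathione reductase GSR at 100.5, 101 and 96.9 CPM in shCont and 153, 136 and 146 CPM in shp16 (0.54). AKR1C1 and AKR1C2 are near-identical copies, so reads may have been split between them. In the list of mTORC1 and amino acid sensing, 7 of 41 were called higher and 1 lower (12 and 2, then 13 and 4 in the reduced fits). GPR155, a cholesterol sensor of lysosomes, fell from 43.1, 53.4 and 57.9 CPM to 24.7, 28.3 and 26.4 CPM (−0.96), and the mTORC1 inhibitor DDIT4 rose from 56.7, 53.6 and 50.3 CPM to 69.0, 78.8 and 80.8 CPM (0.51). MTOR changed by 0.55 (adjusted p = 0.0456), and its call was lost with 7 of the 9 libraries left out. Among 31 regulators of apoptosis (5 higher and 3 lower, and 5 and 7, then 7 and 7 in the reduced fits), the pro-apoptotic genes BCL2L11 (0.69) and HRK (1.45) were called higher with any library left out.

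Other lists of metabolism and translation mostly had calls in both directions. Apart from the solute carriers (29.6%), the share of members called was 16.1% or less. It was thus near or below the 14.8% of all genes. The nucleotide and one-carbon list had 4 higher and 1 lower among 31 (9 and 3, then 9 and 6 in the reduced fits), with the purine enzyme PFAS at 59.5, 69.5 and 64.2 CPM in shCont and 91.1, 78.0 and 86.4 CPM in shp16 (0.40). Glycolysis and the pentose phosphate pathway had 4 and 1 among 31 (9 and 5, then 11 and 9 in the reduced fits), of which SLC16A3, a lactate exporter, fell from 20.2, 17.5 and 14.3 CPM to 9.09, 12.1 and 12.2 CPM (−0.64). The TCA cycle had 2 and 1 among 26 (4 and 3, then 6 and 5 in the reduced fits). There, citrate synthase (CS) rose from 153, 151 and 155 CPM to 243, 215 and 216 CPM (0.56), and the cytosolic aconitase ACO1 rose by 0.64. Amino acid and other solute carriers had 4 higher and 4 lower calls among 27, a share above that of all genes, and 7 and 7, then 7 and 12 in the reduced fits. The arginine carrier SLC7A1 was at 91.7, 152 and 161 CPM in shCont and 242, 207 and 199 CPM in shp16 (0.68) and the glutamine carrier SLC38A2 at 64.8, 109 and 116 CPM in shCont and 146, 161 and 148 CPM in shp16 (0.65). No gene of the mitochondrial genome was called by the edgeR test, whereas the reduced fits gave 1 and 0, then 0 and 10 of 13, with medians of −0.02 and −0.36 against −0.14. Among 38 translation factors (2 and 1, and 7 and 1, then 10 and 6 in the reduced fits) the cap-binding protein EIF4E2 fell by 0.70 on the log2 scale and the repressor EIF4EBP2 rose by 0.55. Ribosome biogenesis had 2 higher and 1 lower calls among 35 (8 and 3, then 10 and 6 in the reduced fits), and the calls of PFAS, SLC16A3, SLC7A1 and SLC38A2 were each lost with at least 1 library left out.

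Counts in large housekeeping lists depended on shCont replicate 1. Of 73 cytosolic ribosomal proteins, 1 was called higher and 1 lower with all libraries, and 37 higher and 1 lower without shCont replicate 1 (43 and 0 in the second reduced fit), where the median moved from −0.02 to 0.27. Mitochondrial ribosomal proteins had 1 and 0 calls of 51, and 13 and 2, then 18 and 4 in the reduced fits. Nuclear genes of the respiratory complexes had 0 and 1 of 48, and 9 and 2, then 13 and 3. The share of counts in ribosomal protein genes was 5.59% in shCont replicate 1 and 3.76% and 3.53% in the other shCont libraries, against 4.40%, 4.29% and 4.28% in shp16. Interferon-stimulated genes had 3 higher and 1 lower calls among 32 (7 and 3, then 8 and 7 in the reduced fits), of which the antiviral GTPase MX1, at 12.9, 12.9 and 12.9 CPM in shCont and 43.3, 34.8 and 36.0 CPM in shp16 (1.56, SE 0.13, adjusted p = 1.97e-05), held with any library left out. MHC class I presentation had 1 and 3 among 19 (4 and 4, then 5 and 6 in the reduced fits). There, ERAP2, which trims peptides, fell from 22.1, 25.9 and 27.9 CPM to 7.84, 8.63 and 9.55 CPM (−1.54). HLA-B fell from 53.3, 41.2 and 32.2 CPM to 8.83, 22.9 and 20.8 CPM (−1.27), with near-identical HLA genes that could share its reads.

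Of the markers of other cell types, several keratins were absent or nearly so from shCont and present in shp16. KRT1, a keratin of the upper epidermis, had no count in any shCont library and 88, 207 and 42 counts in the shp16 libraries, at least 114-fold higher against a floor of 3 counts over the shCont group. KRT5, a basal keratin, had none in shCont and 39, 63 and 42 in shp16, at least 48.9-fold higher by the same floor. KRT14, its partner, had 3 counts in shCont replicate 2 and none in the other 2, against 57, 44 and 43. KRT2 and the desmosomal cadherin DSG1, noted after the values were seen, also had no count in shCont, and 57, 29 and 40 counts (KRT2) and 15, 11 and 15 counts (DSG1) in shp16. The levels of these genes stayed below 10 CPM. The keratin KRT10 was present in both groups, with 730, 473 and 411 counts in shCont and 415, 736 and 551 in shp16. The cornified envelope gene SPRR2D, named among the largest falls, was lower in shp16 (−2.70). In the shp16/shATR libraries KRT1 had 67, 96 and 26 counts. KRT1, KRT5 and KRT14 passed the filter on low counts only through the libraries in which they were high, so their calls are not counted. The list of keratinocyte and epithelial genes had a summed level between 26.1 and 36.4 CPM in shCont and between 51.1 and 72.2 CPM in shp16. The basal factor TP63 was at most 0.341 CPM and EPCAM at most 0.549 CPM. The part of keratinocyte RNA in the rise of CDH1 was not tested. Immune markers had a summed level between 0.873 and 1.502 CPM in shCont and between 0.949 and 1.20 CPM in shp16, with PTPRC and CD3E at 0 in all 6 libraries. Fibroblast markers were between 35.0 and 46.5 CPM in shCont and between 28.3 and 47.2 CPM in shp16, nearly all of it LUM, and endothelial markers between 8.64 and 13.8 CPM in shCont and between 8.04 and 8.62 CPM in shp16. Of 5 tested fibroblast markers, 4 had a change above 0, with a median of 1.72. Calls were 0 higher and 1 lower, and 2 and 0, then 4 and 0 in the reduced fits. The median of these 5 did not keep its sign under every alternative processing.

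Position on the chromosome went with the direction of change. On chromosome 12, 109 genes were called higher and 21 lower of 831 tested, and on chromosome 15 there were 62 and 19 of 558. On chromosome 2 the balance was opposite, with 44 higher and 149 lower of 1091. To place these differences, the 13367 genes of at least 1 CPM on chromosomes 1 to 22 and X were grouped in windows of 10 Mb, using the GRCh37 positions of the deposited table. Of 245 windows with at least 20 genes, 35 had a median log2 fold change of 0.15 or more and 36 of −0.15 or less. Windows of like sign lay side by side in long stretches, whose bounds were set after the values were seen and which are described without a test.

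The largest shift was at the start of chromosome 9. Between 0 and 30 Mb, 33 of 63 genes were called higher and 4 lower, with a median log2 fold change of 0.54. Relative to the shCont mean, the median gene there was at −0.173, 0.0447 and 0.151 in the shCont libraries and at 0.461, 0.537 and 0.579 in the shp16 libraries, on the log2 scale. From 30 Mb to the end of the chromosome the median was −0.01 (n = 469). Chromosome 1 divided near its middle. From 10 to 130 Mb, 109 of 679 genes were called higher and 29 lower (median 0.17), and from 140 to 250 Mb, 25 of 591 genes were called higher and 66 lower (median −0.10). On chromosome 2, both ends were lower and the middle was not. From 0 to 100 Mb, 12 of 425 genes were called higher and 83 lower (median −0.21), from 100 to 210 Mb the median was 0.01, and from 210 to 250 Mb it was −0.22. The 3 shp16 libraries were close to each other in the first stretch of chromosome 2, at −0.189, −0.215 and −0.212, and all 3 shCont libraries lay near 0, at −0.0132, 0.00872 and 0.0128.

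Some shifts ran over a whole chromosome. Over chromosome 12 the median was 0.18, with library values of 0.207, 0.194 and 0.201 in shp16 and −0.00777, 0.0114 and 0.0225 in shCont, and over chromosome 15 it was 0.15. Between 0 and 130 Mb of chromosome 5 it was −0.19, and between 30 and 60 Mb of chromosome 19, −0.28. This last value depended on shCont replicate 1 and was −0.17 without it, whereas those of the other stretches named here moved by less. Without replicate 1 of both groups the medians were 0.49 at the start of chromosome 9, 0.17 and −0.12 in the 2 stretches of chromosome 1, −0.23 in the first stretch of chromosome 2 and 0.17 on chromosome 12. All other genes had a median of −0.01 (n = 8665). In the shp16/shATR libraries, fitted against the same shCont libraries, the medians were 0.54 at the start of chromosome 9, −0.25 in the first stretch of chromosome 2 and 0.13 on chromosome 12. The files analysed here hold RNA counts, and the copy number of these stretches in the cells was not tested.

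**Figure D4:**
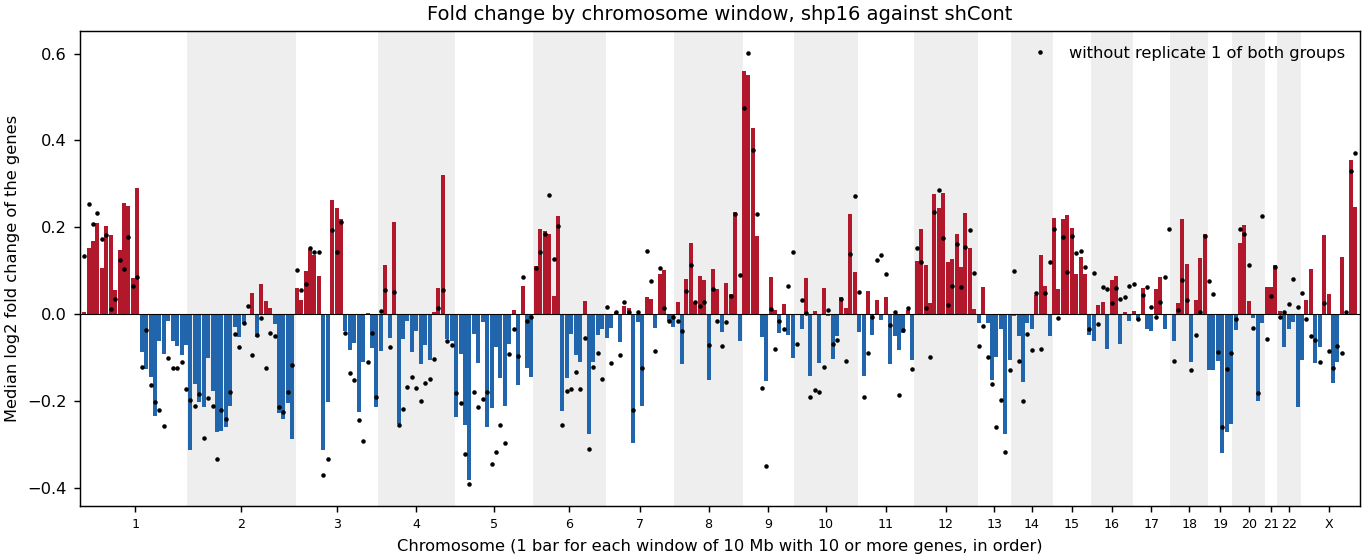
Bars give the median log2 fold change in shp16 against shCont of the genes of at least 1 CPM in each 10 Mb window with 10 or more genes, in order along chromosomes 1 to 22 and X (shaded in turn), and black points give the same median without replicate 1 of both groups. Bars of 1 colour run together over the start of chromosome 9 (median 0.54), the first part of chromosome 1 (0.17), the first part of chromosome 2 (−0.21) and chromosome 12 (0.18).

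CDKN2A lies at the start of chromosome 9, from 21967751 to 21995300, inside the stretch that was higher. Of the 20 other genes of at least 1 CPM within 5 Mb of it, 11 were called higher and 1 lower, and their median log2 fold change was 0.52, or 0.50 without shCont replicate 1. The change of CDKN2A was therefore −1.0 relative to the median of its neighbours, against −0.48 relative to the whole library. The neighbour MTAP, an enzyme of methionine salvage that is often deleted together with CDKN2A, was at 24.6, 28.0 and 32.2 CPM in shCont and 57.5, 53.6 and 51.4 CPM in shp16 (0.94, SE 0.12, adjusted p = 0.000314). CDKN2B, on the other side, was called higher too. FOCAD (0.81), the lipid droplet protein PLIN2 (0.73), the ribosomal protein RPS6 (0.54) and the mTORC1 activator RRAGA (0.42) were called higher as well, although the calls of RPS6 and RRAGA were lost with 5 and 8 of the 9 libraries left out. MTAP, FOCAD and PLIN2 were chosen after their values were seen. Library by library, the median neighbour was at −0.172, 0.0111 and 0.116 in shCont and at 0.481, 0.556 and 0.530 in shp16, relative to the shCont mean on the log2 scale. In the same order CDKN2A was at 0.393, −0.133 and −0.259, and at −0.659, −0.400 and −0.305. The shp16 libraries were thus above all shCont libraries for the median neighbour and below all of them for CDKN2A. Of the 20 neighbours, 16 had a change above 0. CDKN2B-AS1 (−0.73) lay below 0 without a call, and the 1 lower call was RP11-408N14.1 (−0.83).

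**Figure D5:**
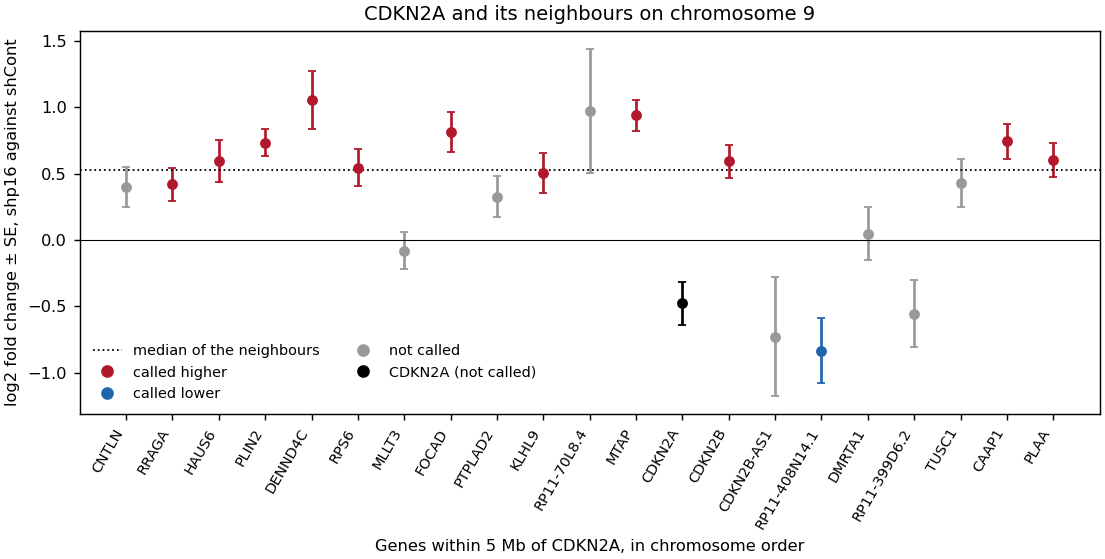
Log2 fold change in shp16 against shCont with its standard error, for CDKN2A and the 20 genes of at least 1 CPM within 5 Mb of it, in chromosome order, with the dotted line at the median of the neighbours (0.52). CDKN2A (−0.48) lies below 0, while 11 of its neighbours were called higher and 1 lower.

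Each gene list was also read relative to the genes within 5 Mb of its members. The median of the ATF4 targets was 0.32 relative to their neighbours, and 7 of the 11 higher members lay in the stretches named above. Of the genes of at least 1 CPM, those stretches held 40.3% of the called and 35.2% of all. They include stretches that were lower or did not shift. For fatty acid synthesis the relative median was 0.34. Secreted cytokines had a relative median of −0.51 and lysosomal genes one of −0.24. The list of CDK4, CDK6 and RB had a median of 0.11 and a relative median of 0.02. Of its 5 higher members, 3 lay in the stretches named above. The part of chromosome position in these lists was not tested. Some members with small changes lay in regions that shifted the same way. CDK4, on chromosome 12, changed by 0.49 (adjusted p = 0.0276 by the edgeR test), against a median of 0.20 among its neighbours, and the serine enzyme SHMT2 by 0.50, against 0.22.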

How the data were processed

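The authors deposited a table of raw read counts per gene and a table of FPKM values (the counts divided by gene length and library total). RNA was extracted with Trizol and cleaned on a column (Qiagen per the labels, Zymo per the study's methods), and libraries were made with NEBNext Ultra II and sequenced by Novogene. The submitters' processing notes name STAR 2.6.1 and GRCh38, but the gene positions in the count table are those of GRCh37, and only these are printed for genes. The counting program and its strand setting are not given in the sources used here.

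Counts of all 9 libraries were fitted together in edgeR 4.0.16 (R 4.3.3) with TMM normalization, the default filter on low counts and the quasi-likelihood test. P-values were adjusted by Benjamini-Hochberg over the 15776 genes tested, and a gene was called at an adjusted p of 0.05. CPM values are normalized by TMM. The deposited FPKM values ranked genes by level per length. The fit was tested on simulated data. Alternatives used DESeq2 1.42.0, limma 3.58.1 on log2(FPKM + 1) and log2(FPKM + 0.1), other scalings and filters, a replicate block and the removal of each library.

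The comparison, its genes and the gene lists were chosen with earlier results of these data known. Named genes were CDKN2A, the 15 largest rises and 15 largest falls, the 10 most abundant called genes, and up to 4 called members of each list with the smallest adjusted p, besides members that define a list. Genes of cholesterol synthesis and chromosome 19 zinc finger genes were left out of the largest changes. Other genes were chosen after their values were seen: CSF1, KRT2, DSG1, LUM, PHGDH, SOX10, MLANA, CDK4, CDK6, MTAP, FOCAD, PLIN2 and RRAGA. Promoters came from a RefSeq table, and plots were made in matplotlib 3.10.9. Columns 14 to 16 of the count table share 1 name, so the shp16/shATR libraries carry no replicate number in it. A few genes are not reported here.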

Additional observations from a re-analysis of the deposited data

How the results depend on the processing

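With 1 library left out in turn, the number of genes called ranged from 1353 to 4189, with 671 to 2169 higher and 682 to 2020 lower. The lowest counts were without shp16 replicate 3 and the highest without shCont replicate 1. Without replicate 1 of both groups, 5267 genes were called (2727 higher and 2540 lower). A fit of only the shCont and shp16 libraries called 1186 (551 and 635). A stricter adjusted p of 0.01 left 994 (500 and 494), and a change of at least 2-fold left 779 (338 and 441). With the replicate block, fitted on the 6 libraries, 423 genes were called (197 and 226), and the log2 fold change of CDKN2A was −0.45 (adjusted p = 0.299 by edgeR). The deviations of same-numbered libraries correlated at −0.0780, 0.0147 and −0.0914 across genes, and those of unlike-numbered libraries at −0.106 to 0.147. With 3 libraries in each group, these values cannot tell whether same-numbered libraries were processed together. A block over all 9 libraries was not run, because the shp16/shATR count columns carry no replicate number. Counts under the other scalings and filters were within 1.5 times the main count. The cause of these differences was not tested.

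The log2 fold change of CDKN2A passed the threshold with DESeq2 (−0.47, adjusted p = 0.0418), with no filter on low counts (−0.46, adjusted p = 0.0145) and without shCont replicate 3 (−0.60, adjusted p = 0.03), and it ranged from −0.60 to −0.26 with 1 library left out. It was −0.16 without replicate 1 of both groups (adjusted p = 0.0795 by the edgeR test). Of the genes named by rule, 68 kept their call under every alternative, 99 lost it under at least 1, and none changed direction. The median of 21 of 46 gene lists kept its sign under every alternative. The spread between separate infections may not be measured by these libraries, and changes of genes near the filter on low counts could not be detected unless large.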
